A study of Mus musculus with 4 samples.

Results

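The inducible heat shock chaperone genes described here are 10 mouse genes: Hspa1a, Hspa1b, Hspa8, Hsph1, Dnaja1, Dnajb1, Bag3, Hsp90aa1, Hspb1 and Hspd1. They were read on 4 two-colour arrays of prostate RNA, and they were chosen because they were high in 1 of the mice, so their ratios are given as a description with no test. A probe for 9 of the 10 genes was found by name, allowing the older names Hsp105 and Hsp110 for Hsph1 and Hspca for Hsp90aa1, out of 27670 genes and unnamed probes on the array. No probe carried the name Hspa1b, so that gene was not measured under its own name. The 9 genes had 19 probes of 60 bases, of which 18 passed the filter on dim probes.

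Chaperones bind proteins that are unfolded or not yet folded and keep them from aggregating. HSP70 proteins hold short stretches of such clients in cycles driven by ATP, J-domain proteins of the HSP40 family bring clients to them and start ATP hydrolysis, and nucleotide exchange factors let the clients go. Heat shock factor 1, Hsf1, is the transcription factor that raises these genes when unfolded proteins build up, and it binds repeats of the unit nGAAn in alternating orientation, called heat shock elements.

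The arrays held 2 mutant mice, Rb1R654W/F:Trp53F/F:PB-cre4, in which 1 Rb1 allele carries R654W and the other is floxed. They were set against 2 null mice, Rb1F/F:Trp53F/F:PB-Cre4, in which both Rb1 alleles are floxed. All 4 mice thus shared the floxed Trp53 alleles and the PB-Cre4 transgene, in which a probasin promoter drives Cre in prostate epithelium, so cells of other kinds in the tissue keep their alleles. All were 60 days old, untreated and of mixed C57BL/6:129/SVJae:FVB background. Each array set 1 mouse, in red Cy5, against a pool of prostates from 3 wild-type mice, in green Cy3, and a log2 ratio of mouse over pool is the unit throughout.

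Before the chaperones, 1 array stood apart. The median red signal over background was 83.7 and 76.9 in mutant mice 1 and 2, against 19.3 and 51.3 in null mice 1 and 2, while the pool gave 22.7 to 23.2 on all 4 arrays. The SD of null mouse 1's log2 ratios over genes was 0.563, against 0.307 to 0.444 on the other 3 arrays. Across genes its ratios correlated with those of the other mice at r = 0.148 to 0.225, while the other 3 mice correlated with each other at 0.49 to 0.586. Genes are not independent replicates, and all ratios share the pool. No spot was saturated. Loess, used here, sets each array's genes near 0 at every brightness, and plain median centring instead put the median of all genes tested at 0.72 and 0.63 in mutant mice 1 and 2, against -0.04 and 0.50 in null mice 1 and 2, so small ratios in mutant mice 1 and 2 and null mouse 2 depend on that choice. All 8 measured markers of prostate luminal cells were well above background in both channels of all 4 arrays. Seminal vesicle markers differed widely, with medians of -4.13 and -0.79 in mutant mice 1 and 2, against -5.29 and -3.72 in null mice 1 and 2. The 4 basal cell markers had medians of -0.27 and -0.37 in mutant mice 1 and 2, against 1.06 and -0.05 in null mice 1 and 2. The 5 macrophage markers had medians of 1.01 and 0.86 in mutant mice 1 and 2, against -0.37 and 1.72 in null mice 1 and 2. The part of these cell types in the chaperone values was not tested, and in bulk tissue a change in the number of cells of a type and a change in RNA per cell cannot be told apart.

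All 9 measured genes were highest in null mouse 1. Over the brightest probe of each gene, the median log2 ratio was 0.08 and -0.10 in mutant mice 1 and 2, against 3.56 and 0.25 in null mice 1 and 2. Over all genes tested the same medians were 0.03 and 0.02 in mutant mice 1 and 2, against -0.01 and 0.03 in null mice 1 and 2. All 18 probes exceeded 2-fold over the pool in null mouse 1, with log2 ratios of 1.13 to 5.89, and 3.22% of all genes did so on that array. In the other 3 mice, 51 of 54 readings lay within 2-fold of the pool. The exceptions were a pair of Hspa1a probes in mutant mouse 1, where 2.56% of genes were at least 2-fold over the pool, and Hsph1 in null mouse 2, where 1.46% were. In mutant mouse 2, where 0.613% of genes were, no member was. With median centring the same genes gave 9 of 27 readings of these 3 mice within 2-fold at the brightest probes, against 25 of 27 with loess.

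**Figure D1:**
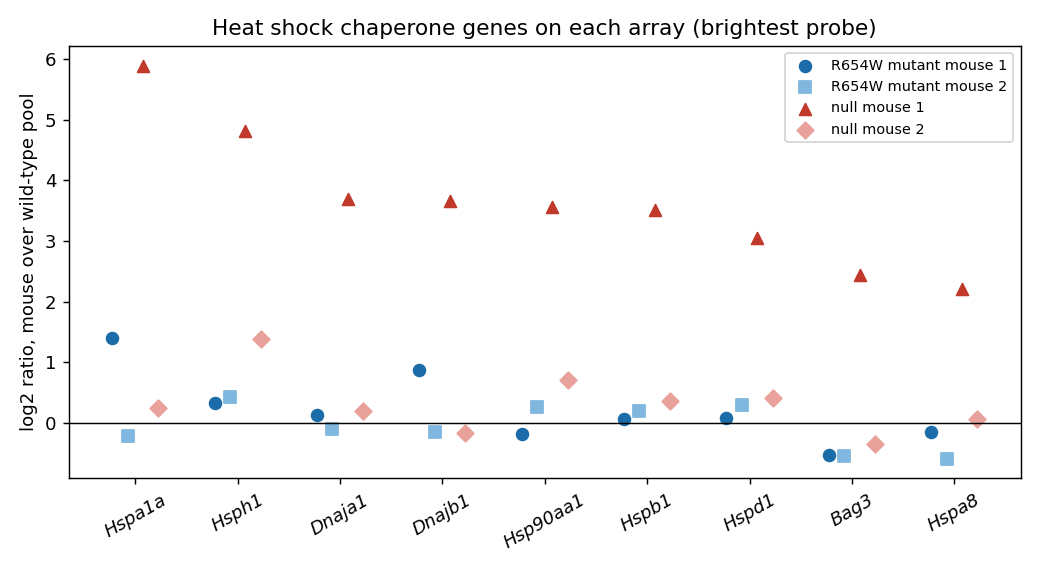
Log2 ratio of mouse over wild-type pool (vertical axis) for the brightest probe of each of the 9 measured genes (horizontal axis), with 1 point per mouse. The null mouse 1 points lie at 2.21 to 5.89, above every other mouse for each gene, while the other 3 mice lie at -0.59 to 1.40.

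Because the members were chosen by this pattern, limma's calls carry no weight here and are given for the record. At an adjusted p under 0.05 no member was called between mutant and null mice, where the share of all genes called was 0.0%, nor in null mice against the pool, also 0.0%, nor in mutant mice against the pool, where it was 0.0119%. At an unadjusted limma p under 0.05, 4 of the 9 members were higher in null mice than in the pool, as were 5.17% of all genes, and 0 of the 9 differed between mutant and null mice, where 0.929% of all genes were higher and 1.06% lower in mutant mice. With null mouse 1 left out, the genotypes rest on mutant mice 1 and 2 against null mouse 2 alone, whose member median is the 0.25 given above.

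Hspa1a and Hspa1b encode the stress-inducible HSP70 proteins and lie next to each other on chromosome 17. Their proteins are nearly the same, and whether the Hspa1a probes also read Hspa1b transcripts was not tested. Their promoters are shown because they are what the array cannot separate by name, and because both hold the 2-unit heat shock element. The 250 bases before each start are from RefSeq, build GRCm38.p6, at chr17:34972157-34972406 for Hspa1a and chr17:34959239-34959488 for Hspa1b, both on the minus strand, with GAANNTTC in capitals.
Hspa1a: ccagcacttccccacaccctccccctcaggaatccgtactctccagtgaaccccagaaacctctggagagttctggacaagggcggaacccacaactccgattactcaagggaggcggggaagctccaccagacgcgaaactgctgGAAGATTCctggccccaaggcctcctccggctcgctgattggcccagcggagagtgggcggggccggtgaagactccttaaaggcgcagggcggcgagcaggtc
Hspa1b: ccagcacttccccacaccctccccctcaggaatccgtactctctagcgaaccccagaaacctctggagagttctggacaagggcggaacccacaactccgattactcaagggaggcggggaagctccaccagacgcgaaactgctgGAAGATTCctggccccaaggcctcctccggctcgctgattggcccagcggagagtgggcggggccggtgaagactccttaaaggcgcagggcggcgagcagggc
They differed at 3 of 250 bases, with the substitutions C44T, T47C and T249G from Hspa1a to Hspa1b, counted from 1 at the 5′ end printed, and were 98.8% identical. The match lay 104 to 97 bases before the start in both.

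Hspa1a had the highest ratio of any member. Its brightest probe had log2 ratios of 1.40 and -0.22 in mutant mice 1 and 2, against 5.89 and 0.25 in null mice 1 and 2. In null mouse 1 that is 59.5-fold over the pool. The red signal was 10181 and 2749 in mutant mice 1 and 2, against 67669 and 2718 in null mice 1 and 2, while the pool's green signal ran from 960.0 to 1046 on the 4 arrays. Mutant mouse 1 was thus also above the pool, and the other mice were not beyond 2-fold. Among 16795 genes with a value on every array, Hspa1a was first by the gap between null mouse 1 and the next highest mouse, 4.49.

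The 4 Hspa1a probes gave very different sizes in the same mouse. Placed by mm7, the build of the array files, the one at the transcript's 3′ end was chr17:33066911-33066970, and the others began 30, 352 and 1760 bases further upstream. From 3′ to 5′, null mouse 1 read 5.89, 4.78, 4.27 and 2.87. Mutant mouse 1 read 1.40, 1.56, 0.82 and -0.20 in the same order. Mutant mouse 2 stayed at -0.65 to -0.22 and null mouse 2 at -0.34 to 0.25. The height in null mouse 1 and in mutant mouse 1 therefore depended on the probe, and the 4 probes differed by 3.02 in null mouse 1. The 5′-most probe was dim, and without the offset of 50 added to the signals it read 3.46, with a spread over the 4 probes of 2.50, and with Agilent's processed signals 3.64, with a spread of 2.36.

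These sequences are shown since 1 gene and 1 mouse gave such unlike ratios at them. The first and second probes overlap by a run of 30 bases at chr17:33066941-33066970, and the 5′-most pair, at chr17:33067263-33067322 and chr17:33068671-33068730, are printed whole, all in mm7 on the minus strand.
Run shared by the probes nearest the 3′ end: agggaaactaaactgtctttcagttacttt
Probe next towards the 5′ end: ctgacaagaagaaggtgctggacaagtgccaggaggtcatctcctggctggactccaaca
Probe furthest 5′: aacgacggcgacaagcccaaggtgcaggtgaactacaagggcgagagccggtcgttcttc
The pair sharing those 30 bases still differed by more than 1 in null mouse 1, while in mutant mouse 1 they were close. The GC content of the 4 probes was 41.7%, 36.7%, 55.0% and 60.0% in 3′ to 5′ order. Their red signal in null mouse 1 fell at every step, being 67669, 37608, 11464 and 833. The part of position, GC content and brightness in the ratios was not tested.

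Hspa8 encodes the constitutive HSP70 protein, abundant in unstressed cells, and it had the lowest ratio of the 9 genes in null mouse 1. Its brighter probe had log2 ratios of -0.15 and -0.59 in mutant mice 1 and 2, against 2.21 and 0.06 in null mice 1 and 2. Its other probe had 0.08 and -0.61 in mutant mice 1 and 2, against 1.13 and -0.28 in null mice 1 and 2. With loess both probes put null mouse 1 on top and mutant mouse 2 lowest. The array files list the probes on chromosome 5 of mm7, at chr5:5787852-5787911 and chr5:5788853-5788912, while RefSeq places Hspa8 on chromosome 9. The sequences are shown so that the place can be looked up.
Hspa8 brighter probe: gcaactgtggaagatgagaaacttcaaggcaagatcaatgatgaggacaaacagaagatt
Hspa8 other probe: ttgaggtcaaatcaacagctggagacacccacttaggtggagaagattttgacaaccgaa
The red signal of the dimmer-ratio probe was 18363 in null mouse 1, while the other 3 mice gave 14957 to 30800, so it was the only 1 of the 18 probes whose red signal was not highest in null mouse 1. With loess and with Agilent's processed signals its ratio was highest in null mouse 1, but with median centring it was 1.38 and 0.43 in mutant mice 1 and 2, against 1.36 and 0.63 in null mice 1 and 2, so its place on top was lost.

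Hsph1 encodes an HSP110 protein, a nucleotide exchange factor of HSP70. It had log2 ratios of 0.33 and 0.42 in mutant mice 1 and 2, against 4.81 and 1.38 in null mice 1 and 2, and was read by 1 probe at chr5:148550005-148550064 in mm7. Null mouse 1 was 28.1-fold over the pool. Hsph1 was the only member past 2-fold in null mouse 2, where 1.46% of all genes were. Its RefSeq promoter at the upstream-most start, chr5:149636337-149636586 of GRCm38.p6 on the minus strand, is shown beside that value with the 2-unit element TTCNNGAA in capitals.
Hsph1: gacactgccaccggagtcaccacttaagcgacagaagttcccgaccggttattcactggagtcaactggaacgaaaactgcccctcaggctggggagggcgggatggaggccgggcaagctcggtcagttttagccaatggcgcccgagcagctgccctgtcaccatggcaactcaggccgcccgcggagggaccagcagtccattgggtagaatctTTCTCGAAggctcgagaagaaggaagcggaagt

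Of the J-domain genes, Dnaja1 codes for a co-chaperone of HSP70 and Dnajb1 for its main stress-inducible partner. Dnaja1 had 0.13 and -0.10 in mutant mice 1 and 2, against 3.69 and 0.20 in null mice 1 and 2, at its brightest probe. Its 3 probes read 3.32, 3.64 and 3.69 in null mouse 1 over 1958 bases of the gene, a spread of 0.37, so the 3′-to-5′ fall of Hspa1a was not seen here. Dnajb1 had 0.88 and -0.15 in mutant mice 1 and 2, against 3.66 and -0.16 in null mice 1 and 2, and its probe 1435 bases upstream read 3.82 in null mouse 1. The upstream probe was the lower in null mouse 1 for Hspa8, with 1.13 against 2.21, Hspd1, with 2.73 against 3.05, and Bag3, with 2.05 against 2.44. For Bag3 this order depends on the offset, and without it the upstream probe read 2.83 against 2.46. Dnajb1 and Hspa1a had the highest values of mutant mouse 1 among the 9 genes.

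Bag3, an exchange factor of HSP70 that links it to autophagy, was below the pool at its brightest probe in every mouse but null mouse 1, although with median centring in place of loess these values were 0.61 and 0.40 in mutant mice 1 and 2, against 0.46 in null mouse 2. It had -0.54 and -0.54 in mutant mice 1 and 2, against 2.44 and -0.34 in null mice 1 and 2. Its second probe, 565 bases upstream, read 0.22 and -0.12 in mutant mice 1 and 2, against 2.05 and 0.53 in null mice 1 and 2. The probes thus disagreed in sign for mutant mouse 1 and null mouse 2, where both values were small, and both placed null mouse 1 far on top.

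Hsp90aa1 encodes the stress-inducible cytosolic HSP90, the chaperone of many kinases and steroid receptors, the androgen receptor among them. It had -0.18 and 0.27 in mutant mice 1 and 2, against 3.56 and 0.71 in null mice 1 and 2. Of all 18 probes it had the largest shift in the pool channel: its green signal was 14345 and 13877 on the arrays of mutant mice 1 and 2, against 8023 and 12798 on those of null mice 1 and 2. The pool signal of null mouse 1's array was 0.587 of the mean of the other arrays at this probe, and for the 18 probes it ran from 0.587 to 1.13 with a median of 0.984. At 7 probes, each the brightest of its gene, the pool signal was lower on null mouse 1's array than on every other array. Besides Hsp90aa1 these ratios were 0.772 for Hspa8, 0.807 for Hsph1, 0.811 for Dnaja1, 0.879 for Hspd1, 0.882 for Dnajb1 and 0.94 for Hspa1a. Bag3 and Hspb1 had no such probe. The part of the pool channel in the log2 ratios was not tested. At the Hsp90aa1 probe the red signal of null mouse 1 was still 2.06 times the mean of the other 3 mice. For the 18 probes that red ratio was lowest, at 0.865, for the Hspa8 probe named above.

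Hspb1 encodes the small heat shock protein HSP25, which holds unfolded proteins without using ATP. It had 0.06 and 0.19 in mutant mice 1 and 2, against 3.51 and 0.37 in null mice 1 and 2. A second probe named Hspb1, listed at chr13:44530685-44530744 in mm7, was not well above background in either channel of any array, so its ratios are not read. The gene itself lies on chromosome 5. Its promoter holds 2 copies of GAANNTTC, in capitals, in the 250 bases at chr5:135887669-135887918 of GRCm38.p6, plus strand.
Hspb1: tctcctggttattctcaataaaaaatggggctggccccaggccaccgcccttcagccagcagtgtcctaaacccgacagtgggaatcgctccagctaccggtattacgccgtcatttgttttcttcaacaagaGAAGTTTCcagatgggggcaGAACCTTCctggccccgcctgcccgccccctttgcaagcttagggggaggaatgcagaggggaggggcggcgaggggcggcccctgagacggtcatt

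Hspd1 encodes the mitochondrial chaperonin HSP60 and lies head to head with Hspe1, which encodes its lid HSP10. Hspd1 had 0.08 and 0.30 in mutant mice 1 and 2, against 3.05 and 0.42 in null mice 1 and 2, and its second probe read 2.73 in null mouse 1. Hspe1, which is no member, had 0.78 and 0.51 in mutant mice 1 and 2, against 3.02 and 0.80 in null mice 1 and 2. The pair thus had nearly the same ratio in null mouse 1. A stretch that lies between their starts, chr1:55088039-55088096 of GRCm38.p6 on the minus strand, is shown because Hspd1 had the only member promoter with a 3-unit match. The capitals mark 5 overlapping matches of the 2-unit and 3-unit forms, which together make a run longer than 1 3-unit element.
Hspd1 and Hspe1: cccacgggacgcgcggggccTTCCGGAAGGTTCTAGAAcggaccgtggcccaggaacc

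Within 2 places of the members along the chromosome, members left out, 30 neighbours were measured. Of these, 5 were at least 2-fold over the pool in null mouse 1, where 3.22% of all genes were. Besides Hspe1, a chaperonin gene, the 5 were Coq10b beside Hspd1 at 1.77 and Mcmbp near Bag3 at 1.36. The others were B4galt1 near Dnaja1 at 1.35 and Ywhag beside Hspb1 at 1.01. Hspa1l, the testis HSP70 gene beside Hspa1a, had 0.07 and 0.12 in mutant mice 1 and 2, against 0.18 and 0.09 in null mice 1 and 2. The 9 genes lie on 8 chromosomes in all.

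**Figure D2:**
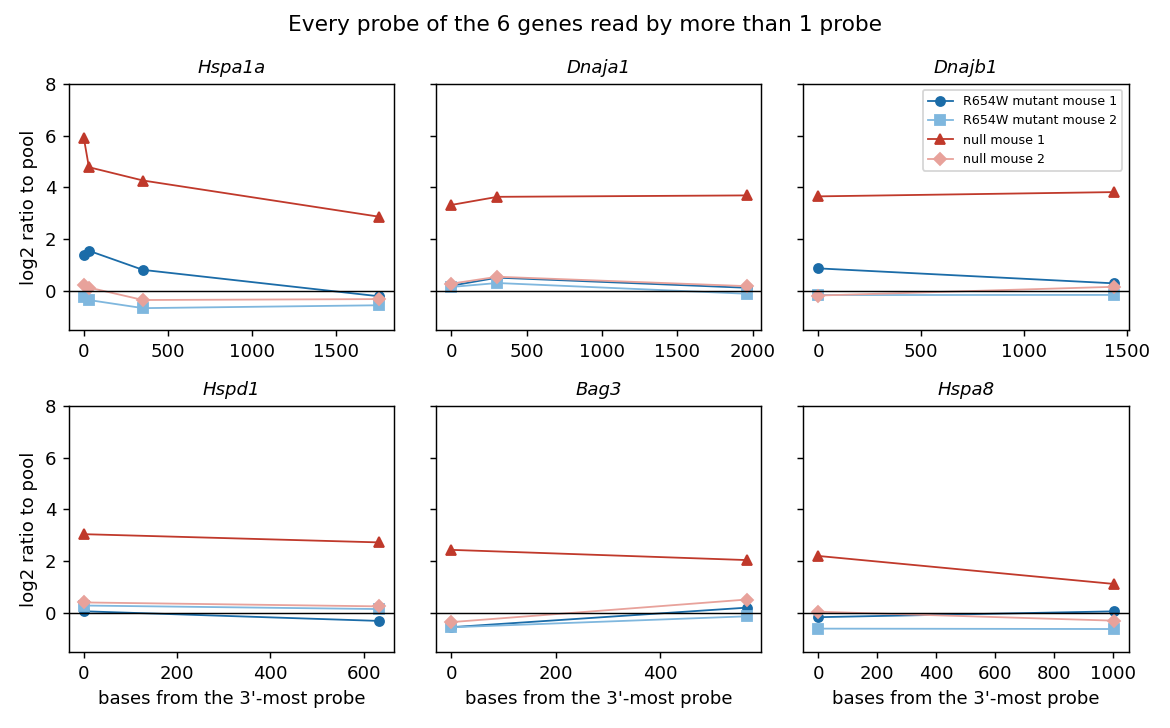
Log2 ratio to the pool (vertical axis) against the distance in bases from the 3′-most probe (horizontal axis) for each probe of the 6 genes with more than 1 probe, 1 line per mouse. Hspa1a in null mouse 1 runs from 5.89 at its 3′ end to 2.87, Dnaja1 stays between 3.32 and 3.69, and null mouse 1 is highest at every probe. Hspa8, Hspd1 and Bag3 also read lower at the upstream probe in null mouse 1, and Dnajb1 higher.

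RefSeq promoters of 8 of the 10 members were used, and those of Hspa8 and Hsp90aa1 were not analysed here. GAANNTTC or TTCNNGAA, each of which is its own reverse complement, so that 1 search covers both strands, occurred in the 250 bases before a start in 6 of the 8, the exceptions being Bag3 and Dnajb1, and in 14.5% of 27025 genes. The 3-unit forms GAANNTTCNNGAA or TTCNNGAANNTTC, which are each other's reverse complement and hold the 2-unit ones, occurred in 1 of 8, Hspd1, and in 0.514% of genes. CCAAT or ATTGG occurred in 5 of 8 and in 37.5% of genes. These are matches of letters, and no match in this window says nothing about Hsf1.

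The 9 genes stood near the top of all genes by the gap between null mouse 1 and the next highest mouse. They were chosen for being high in that mouse, so this place follows from the choice and is given as a description only. Their ranks were 1 for Hspa1a, 6 for Dnaja1, 8 for Hsph1, 10 for Hspb1, 13 for Hsp90aa1, 15 for Bag3, 16 for Dnajb1, 17 for Hspd1 and 35 for Hspa8. A gap of 1 or more, which all 9 had, was found for 1.85% of genes, and null mouse 1 was the highest mouse for 31.4% of genes.

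**Figure D3:**
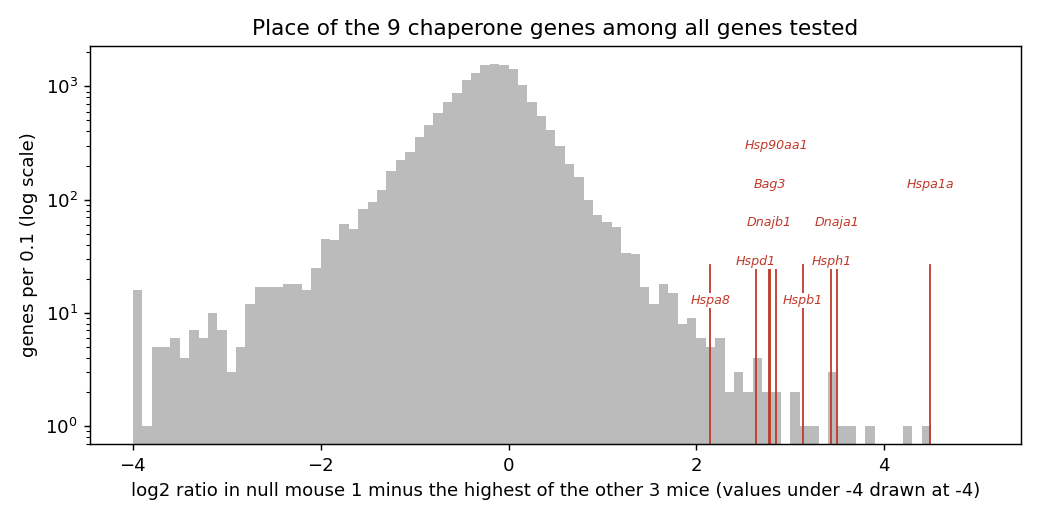
Number of genes (log axis) by the log2 ratio in null mouse 1 minus the highest of the other 3 mice, with the 9 chaperone genes marked. They lie between 2.15 for Hspa8 and 4.49 for Hspa1a, at the far right of the distribution, where their choice by this pattern puts them.

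The other genes most like them by that gap were mostly not chaperones. Tnfrsf12a, a receptor of the TNF family, had -0.61 and -0.44 in mutant mice 1 and 2, against 3.76 and -0.51 in null mice 1 and 2. Ifrd1 followed at 3.38 in null mouse 1, though its second probe read 0.46 there. Ddit3, which encodes the transcription factor CHOP of the endoplasmic reticulum stress response, was at 3.66. Slc7a11, the cystine importer, was at 3.61 with a second probe at 1.81, and Srxn1, which repairs oxidised peroxiredoxins, was at 3.07. Mup4 was at 3.48, Gad2 at 3.26, Sprr1a, a protein of squamous epithelia, at 2.78, and a probe without a gene name at 3.96. The dim genes among these depend on the offset: without it Slc7a11 was at 4.70, Mup4 at 4.71 and Sprr1a at 3.56 in null mouse 1, and with processed signals Mup4 was at 5.13 and Sprr1a at 3.83. LOC384039 was at 2.83 and is described in the files as similar to the chaperonin of Hspd1. Whether its probe also read Hspd1 transcripts was not tested.

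Most genes of the rest of the chaperone machinery lay near the pool in null mouse 1. Of 98 genes on 8 lists of other cytosolic and mitochondrial chaperone genes, 16 were at least 2-fold over the pool in null mouse 1 and 2 at least 2-fold under it, with a median of 0.07. Over all genes, 3.22% were at least 2-fold over the pool there and 2.88% at least 2-fold under it. By limma at an adjusted p under 0.05, 0 of the 98 were called in any of the 3 comparisons. At an unadjusted limma p under 0.05, 0 were higher and 2 lower in mutant than in null mice, where all 16795 genes gave 0.929% and 1.06%, and 16 were higher and 6 lower in null mice than in the pool, where all genes gave 5.17% and 4.72%.

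Heat shock factor transcripts themselves lay near the pool. Hsf1 had 0.01 and -0.01 in mutant mice 1 and 2, against 0.27 and -0.19 in null mice 1 and 2. These values are from a very bright probe, with a mean log2 intensity of 16.5, against 9.63 and 7.85 for the other Hsf1 probes. The other Hsf1 probes read 0.53 and 0.39 in null mouse 1 and -0.33 to 0.17 in the other mice. Hsbp1, which binds Hsf1 trimers, had 0.01 in null mouse 1 and Hsf5 -0.29, while Hsf2, Hsf4 and Hsf2bp had no probe past the filter. The median of the 3 measured genes in null mouse 1 was 0.01.

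Among the HSP70 relatives, 2 of 9 were at least 2-fold over the pool in null mouse 1, and both were HSP110-type genes. Hspa4l had 0.12 and 0.37 in mutant mice 1 and 2, against 2.55 and 0.70 in null mice 1 and 2. The other Hspa4l probes read 1.72, 1.95 and 0.98 in null mouse 1. Hspa4 was at 1.28 in null mouse 1, with other probes at 1.62 and 0.65, and Hspa12a was lowest at -0.39. The median of the 9 was 0.18 there.

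In the J-domain family, 4 of 29 genes were at least 2-fold over the pool in null mouse 1 and none at least 2-fold under it, with a median of -0.05. Dnaja4 was highest at 1.65, but its other probe read 0.79, so its place past 2-fold depends on the probe. Dnajb6 read 1.37 at its brightest probe, but its other probes read 0.12 and -0.23, so its call also depends on the probe. Dnajc14 was lowest at -0.76, but its other probe read 0.06. None of the 7 small heat shock protein genes reached 2-fold either way, from Hspb9 at 0.57 and Hspb2 at 0.04 to Hspb6 at -0.21, which sets Hspb1's 3.51 beside a list median of -0.07.

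HSP90 and its co-chaperones had the highest median of these lists in null mouse 1, 0.73, with 7 of 16 genes at least 2-fold over the pool and 1 under it. Chordc1, an HSP90 co-chaperone, had 0.13 and -0.20 in mutant mice 1 and 2, against 2.51 and 0.18 in null mice 1 and 2. Cacybp was at 2.00 in null mouse 1, and Hsp90ab1, the constitutive HSP90 gene, at 1.33 with another probe at 0.87. Fkbp5, an androgen-responsive co-chaperone, was lowest, with -0.96 and -0.32 in mutant mice 1 and 2, against -1.09 and -0.54 in null mice 1 and 2. However, 1 of its probes read 2.05 in mutant mouse 1 and 0.02 in null mouse 1, so its place under 2-fold depends on the probe.

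The exchange factors and other HSP70 co-chaperones had 0 of 11 genes past 2-fold, with a median of -0.23 in null mouse 1. St13 was highest at 0.80, with other probes at 0.58 and 0.07. Grpel2 was at 0.45, with another probe at 0.07, and Sil1 was lowest at -0.76. Of 15 chaperonin and prefoldin genes only Hspe1 passed 2-fold, and the cytosolic chaperonin genes Cct5 and Cct2 were at 0.77 and -0.29. Of 8 other heat shock factor targets 2 were at least 2-fold over the pool: Serpinh1, the collagen chaperone, at 1.23 and Sqstm1, an autophagy receptor, at 1.08. The polyubiquitin gene Ubb was lowest at -1.20.

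Endoplasmic reticulum chaperones and immediate early genes were also listed, as genes of other stress responses. Over all genes, 3.22% were at least 2-fold over the pool in null mouse 1 and 2.88% at least 2-fold under it. Of 18 endoplasmic reticulum genes 7 were at least 2-fold over the pool in null mouse 1 and 1 under it, with a median of 0.51. Hspa5, the HSP70 of that compartment, had -0.61 and 0.10 in mutant mice 1 and 2, against 2.22 and 0.10 in null mice 1 and 2. Calr was lowest at -1.07 in null mouse 1, but its other probe read -0.77 there, short of 2-fold. Of 16 immediate early genes 5 were at least 2-fold over and 0 under, with a median of 0.26, and Klf6 was highest at 1.72, Atf3 was at 1.42 and Ier2 lowest at -0.82. Neither list was tested against the chaperone genes.

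**Figure D4:**
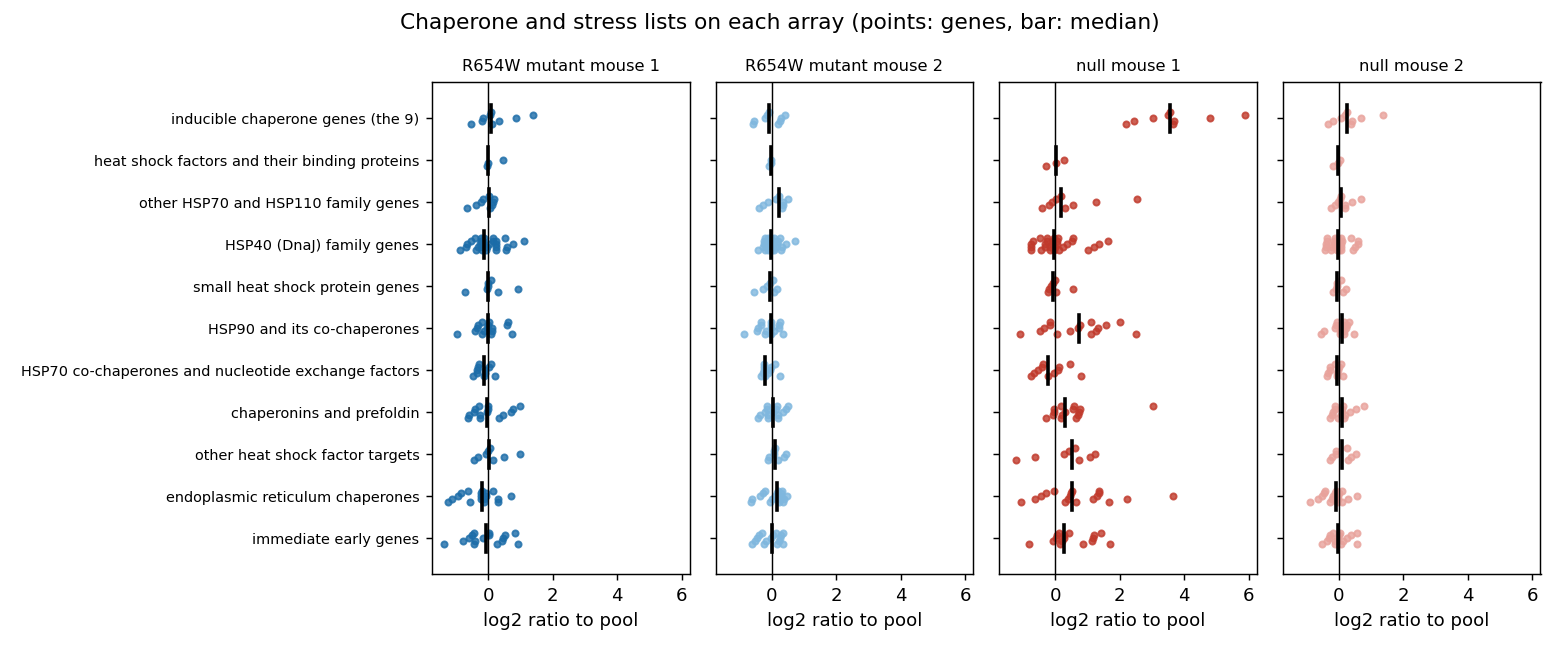
Log2 ratio to the pool (horizontal axis) of every gene of each list past the filter, with 1 panel per mouse and bars at list medians. The chaperone members centre on 3.56 in null mouse 1 and on -0.10 to 0.25 in the other 3 mice, and no other list has a median above 0.73 in null mouse 1.

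With loess, in 7 of the 9 genes both null mice exceeded both mutant mice, an arrangement found for 14.6% of all genes, but the members were chosen by null mouse 1 and in null mouse 2 their ratios ran only from -0.34 to 1.38. The exceptions were Hspa1a and Dnajb1, where mutant mouse 1 lay above null mouse 2. With median centring only 2 of the 9 genes, Hsph1 and Hsp90aa1, kept this order, and with the mean of all probes 6 did.

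In the authors' deposited table, which gives mean ratios by genotype, all 18 rows of the 9 genes were lower in mutant than in null mice. In that table Hspa1a had a mean ratio of 1.85 with an SEM of 1.08 in mutant mice, against 27.7 with an SEM of 26.6 in null mice. In the authors' deposited table the ratios of the means ran from 1.81 to 14.9 for these rows, and it gives no value per mouse.

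The floxed genes gave no clear check of the labels. Rb1 had -0.65 and -0.24 in mutant mice 1 and 2, against 0.09 and -0.87 in null mice 1 and 2. At its brighter probe Trp53 had 0.14 and 0.12 in mutant mice 1 and 2, against 0.53 and 0.08 in null mice 1 and 2. Its dimmer probe read -0.08 and -0.27 in mutant mice 1 and 2, against -0.05 and -0.40 in null mice 1 and 2. Whether the probes lie in the deleted exons is not given in the sources used here.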

How the data were processed

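RNA of 4 mouse prostates was measured on 4 two-colour arrays, with 2 mice per genotype and a wild-type pool in the green channel. The deposited files give spot brightness as intensity and a log10 ratio, per the file headers. A further table deposited by the authors holds the mean linear ratio of each genotype. Agilent Feature Extraction is given as 9.5.1.1 in the file headers and as 8.5 by the submitters' processing notes.

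Mean signals were corrected with normexp (offset 50) against background medians and normalised by loess (limma 3.58.1, R 4.3.3), with control spots at weight 0 and outlier-flagged spots left out. Of 41174 probes, 24908 passed a filter (well above background in red in both mice of either genotype, or in green on all 4 arrays), and the brightest probe stood for each of 16845 genes. Genotypes were compared with lmFit and eBayes, adjusted by Benjamini-Hochberg over all genes. The dyes were not swapped, so a dye effect stays in ratios to the pool, and that pool counts as 1 sample. The number of arrays limits the precision. All 4 arrays share 1 slide. The fit was tested on simulated data. Genes with a value on all 4 arrays, 16795, served for medians and counts. Promoters came from RefSeq (GRCm38.p6).

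The members and the lists were chosen with earlier results of these data known. Named genes were every member, the 2 highest and the lowest gene of each list in null mouse 1, a few genes of known role, and the 10 genes with the largest gap between null mouse 1 and the next highest mouse. Alternatives were processed signals, median centring, no offset, no filter, the mean of all probes, a replicate block and leaving out each array.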

Additional observations from a re-analysis of the deposited data

Results flagged for a closer look

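With loess, in 5 of the genes named here both mutant mice lay below the pool and both null mice above it. The difference of mutant minus null was -1.51 for Hspa8, -1.24 for Cacybp, -0.56 for St13, -1.08 for Serpinh1 and -1.41 for Klf6. Hspa8 was chosen for its ratios, so no p is given for it, and as stated above no member was called by limma. The same pattern was found in 7 of 132 genes of the other lists, the named 4 and Dnajb3, Dnajb4 and Ahsa2. Dnajb3, Dnajb4 and Ahsa2 were looked up after their values were seen. The share of all genes with this pattern was not counted. The looser arrangement, both null mice above both mutant mice, was found for 14.6% of all genes. Cacybp, St13, Serpinh1 and Klf6 were named for being among the highest of their lists in null mouse 1, so that part of their pattern was chosen. For Cacybp, St13, Serpinh1 and Klf6 the limma contrast of the genotypes gave an adjusted p of 0.993 each. With median centring both mutant mice lay above the pool in all 5, so the opposed directions were lost. For Hspa8 they were also lost at its other probe, which read 0.08 in mutant mouse 1 and -0.28 in null mouse 2, and with the mean of all probes, which put null mouse 2 at -0.11. St13 lost them at its other probes too: 1 read 0.06 and 0.05 in mutant mice 1 and 2, and another read -0.37 in null mouse 2. Klf6 kept them at its other probe, with -0.28 and -0.08 in mutant mice 1 and 2, against 1.54 and 0.05 in null mice 1 and 2. At the brightest probes of all 5, most of the distance came from null mouse 1, with null mouse 2 between 0.02 and 0.37 above the pool.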

How the results depend on the processing

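Under all 5 other ways of making the values, null mouse 1 was highest for 9 of 9 member genes, with a smallest gap of 1.30 under median centring and 1.71 or more otherwise. At the level of probes, the dimmer Hspa8 probe was no longer highest in null mouse 1 with median centring. Median centring in place of loess moved the member medians to 1.41 and 0.93 in mutant mice 1 and 2, against 3.87 and 1.15 in null mice 1 and 2, and the medians of all genes to 0.72 and 0.63 in mutant mice 1 and 2, against -0.04 and 0.50 in null mice 1 and 2. The mean of all probes moved the member median of mutant mouse 2 to 0.13. The list medians in null mouse 1 that moved did so by small amounts. For heat shock factors they were 0.042 with processed signals, 0.12 with median centring and -0.14 with the mean of all probes. For other HSP70 genes the median was 0.28 without offset. For the J-domain genes it was -0.082 with processed signals, -0.13 with median centring and -0.081 without offset. For small heat shock protein genes it was -0.18 with processed signals, -0.11 with median centring, -0.14 without offset, -0.053 without the filter and -0.060 with the mean of all probes. For chaperonins it was 0.58 with median centring.

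Leaving out each array in turn gave 0 to 160 called genes between mutant and null mice, 0 to 558 in null mice against the pool and 0 to 4 in mutant mice against the pool, where the lone mouse of a genotype is assumed to vary like the other genotype. The counts of 160 and 558 came without null mouse 2, and 1 gene was called in null mice against the pool without null mouse 1. In mutant mice against the pool the 2 calls became 2785 with median centring and 0 with processed signals, without the filter and with the replicate block. Without offset 2 genes were called in null mice against the pool. The replicate block gave 0 calls in each of the 3 comparisons, and same-numbered mice did not deviate together (r = -0.008 across genes), so the numbers do not pair them. The causes of these changes were not tested.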
